A study of Mus musculus with 6 samples.

Results

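The 10 protein-coding genes Shroom3, Jcad, Grb7, Gprin3, Tmtc2, Plb1, Sult5a1, Zcchc14, Ccdc36 and Trap1a were read in leukemia cells of the Phf6 knockout group and were almost without reads in leukemia cells with Phf6. They were chosen from a deposited table of 54532 genes because no WT Phf6,RE9a library had more than 3 counts of any of them and every VC Phf6,RE9a library had 35 or more. Their counts are therefore a description of the choice, and no test is given for them. In the table, 35 genes met these limits, and the 10 genes ranked between 2 and 15 among the 35 by mean count in VC Phf6,RE9a cells.

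The study asked what loss of Phf6, an X-linked gene for a nuclear PHD finger protein, changes in acute myeloid leukemia (AML). All 6 libraries were made from GFP+ leukemia cells, sorted from mouse bone marrow. The leukemias were driven by RUNX1-ETO9a (RE9a), a truncated form of the AML1-ETO fusion, carried with GFP on a retrovirus in lineage-negative fetal liver cells from male donors and passed serially through male recipients. The 3 WT Phf6,RE9a libraries (replicates 1, 2 and 3) came from Phf6 fl/y cells, whose floxed allele was left whole. The 3 VC Phf6,RE9a libraries (replicates 11, 12 and 13) came from Vav1-Cre;Phf6 fl/y cells, in which Cre under the Vav1 promoter acts across the blood system. These groups are called control and knockout below. No age is labelled, nor whether a group's libraries stand for separate leukemias, animals or passages, so p-values below measure only the spread between these libraries, which may be technical. Total counts ran from 15675358 to 16817994 per library. Phf6 itself was read 1044, 827 and 1142 times in the control libraries and 388, 314 and 331 times in the knockout libraries, each lower than every control library (log2 fold change -1.66 with a standard error of 0.13, adjusted p = 9.32e-05 by the quasi-likelihood test of edgeR).

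The 10 genes are not members of 1 pathway. Shroom3 and Jcad encode proteins of the actin cytoskeleton and of cell junctions, and Grb7 and Gprin3 encode adaptors of growth factor receptors and of heterotrimeric G proteins. Tmtc2, Plb1 and Sult5a1 encode proteins that glycosylate proteins, cleave phospholipids and sulfate small molecules. Zcchc14 encodes an RNA-binding zinc finger protein, Ccdc36 a protein of meiotic chromosomes, and Trap1a a tumor antigen of germ cells and placenta. Most of these are best known outside the blood, in epithelium, endothelium, neurons or the germ line.

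The 250 bases before the RefSeq start (GRCm38.p6) are shown for 3 of the genes as examples. These 3 stood in different orders among the knockout libraries, and these bases lie wholly outside the gene as deposited. Ccdc36 also met both conditions and is not shown. Each is written 5′ to 3′ on the strand of its gene, at chrX:139333433-139333682 (plus strand), chr6:59426307-59426556 (minus strand) and chr10:105574480-105574729 (minus strand). Capitals mark the letters of the motifs searched.
Trap1a: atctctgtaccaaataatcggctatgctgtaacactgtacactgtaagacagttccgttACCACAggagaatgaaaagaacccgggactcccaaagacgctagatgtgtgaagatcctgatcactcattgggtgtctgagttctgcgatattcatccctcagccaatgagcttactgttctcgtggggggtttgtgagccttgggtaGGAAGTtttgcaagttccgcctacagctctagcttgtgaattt
Gprin3: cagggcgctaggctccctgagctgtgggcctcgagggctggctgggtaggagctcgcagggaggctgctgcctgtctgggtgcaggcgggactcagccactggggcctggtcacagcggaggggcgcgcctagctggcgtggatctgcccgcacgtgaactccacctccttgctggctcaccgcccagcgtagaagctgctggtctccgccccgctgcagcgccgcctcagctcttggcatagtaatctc
Tmtc2: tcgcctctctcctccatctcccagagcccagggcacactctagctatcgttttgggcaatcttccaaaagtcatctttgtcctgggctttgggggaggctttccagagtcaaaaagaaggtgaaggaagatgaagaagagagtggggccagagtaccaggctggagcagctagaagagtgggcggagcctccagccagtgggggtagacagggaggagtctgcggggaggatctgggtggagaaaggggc
The Trap1a sequence holds ACCACA, which is the reverse complement of the RUNX letters TGTGGT, from 191 to 186 bases before the start, and the ETS letters GGAAGT from 43 to 38 bases before it. The Gprin3 and Tmtc2 sequences hold none of the letters searched. Gprin3 was the richest of the 3 in G and C, with 68.8% and 16 CpG sites, against 57.2% and 4 CpG sites for Tmtc2 and 46.8% and 7 CpG sites for Trap1a. The median of all 32851 promoters of that length was 52.4% with 6 CpG sites.

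RefSeq promoters were used for 8 of the 10 genes (not for Grb7 or Jcad), with Ccdc36 under its RefSeq name Iho1. They gave 10 sequences, since Shroom3 and Plb1 have 2 starts each. Letters for RUNX, the family to which the RE9a fusion belongs, were searched as TGTGGT on either strand. A further spelling of that motif, TGCGGT, was counted with it. These letters stood in 3 of the 10 sequences, those of Trap1a, Zcchc14 and 1 start of Plb1, and in 18.6% of all promoters. Letters for ETS (GGAAGT, in 19.7% of all) were found in 3, those of Trap1a and both starts of Plb1. Letters for AP-1 were searched as TGACTCA on either strand, whose reverse complement is its other common spelling, and stood in 1 sequence, at Plb1, and in 4.46% of all promoters. The motif of GATA factors, searched with the letters AGATAA (in 9.99% of all), was found in 0 of the 10. The same held for the NF-kB letters (GGANTTTCC, in 1.07% of all promoters). The TATA box (TATAAA, in 12.4% of all) was likewise found in 0. These are matches of letters only. The sequences of Shroom3, Plb1 and Zcchc14 lie inside the gene as deposited, and 35 of the 250 bases of Sult5a1 do.

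Of the 3 among the 10 genes that were read in no control library, Shroom3 had the highest counts. It encodes an actin-binding protein that brings ROCK kinases to apical junctions and narrows the apex of epithelial cells. It lies on chr5:92683435-92965318 (plus strand) and had 967, 434 and 1001 counts in knockout replicates 11, 12 and 13, which is 57.1, 25.3 and 59.5 CPM (counts scaled to library size). The control replicates 1, 2 and 3 had 0 counts each, where a count of 0 allows up to 3 counts, at most 0.204 CPM. Against that floor in each control library, Shroom3 was at least 245-fold higher. Replicate 12 lay below the other knockout libraries, and the groups did not overlap, as the choice of the gene required.

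Jcad, which encodes a protein of endothelial cell junctions that binds the Hippo kinase LATS2, had the highest mean count of the 10 genes in knockout cells, though in replicate 12 Gprin3 and Grb7 had more. It lies on chromosome 18 from 4634929 to 4682868 (plus strand) and had 1113, 617 and 1122 counts in knockout cells and 1, 2 and 3 in control cells. The mean in knockout cells was 56.1 ± 17.5 CPM (SD, n = 3), and the ratio of pooled counts was 436, with a counting interval (95%, exact) of 199.8 to 1188. Such intervals and floors hold for counting error alone, because without molecular identifiers a read need not be a molecule of its own. Replicate 12 was again the lowest.

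Grb7 and Gprin3 encode signaling adaptors. Grb7, whose SH2 domain binds receptor tyrosine kinases such as ERBB2, lies on chr11:98446394-98455373 (plus strand) and had 857, 734 and 854 counts in knockout cells against 0, 3 and 2 in control cells. Its knockout libraries lay close together at 48.0 ± 4.56 CPM (SD, n = 3), a ratio of 448 (counting interval 192 to 1381). The control side rests on 5 counts, and without control replicate 2 the ratio was 766. Gprin3, which encodes a partner of activated inhibitory G protein alpha subunits, lies on chr6:59347226-59426294 (minus strand) and had 624, 832 and 301 counts against 1, 0 and 0. Here replicate 13 was the lowest and replicate 12 the highest, the opposite of Shroom3, with a mean of 34.4 ± 15.4 CPM (SD, n = 3). Its ratio of 1610 (counting interval 289 to 63622) rests on 1 count in control replicate 1. Without that library Gprin3 was at least 179-fold higher, and without control replicate 3 the ratio was 1040.

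**Figure D1:**
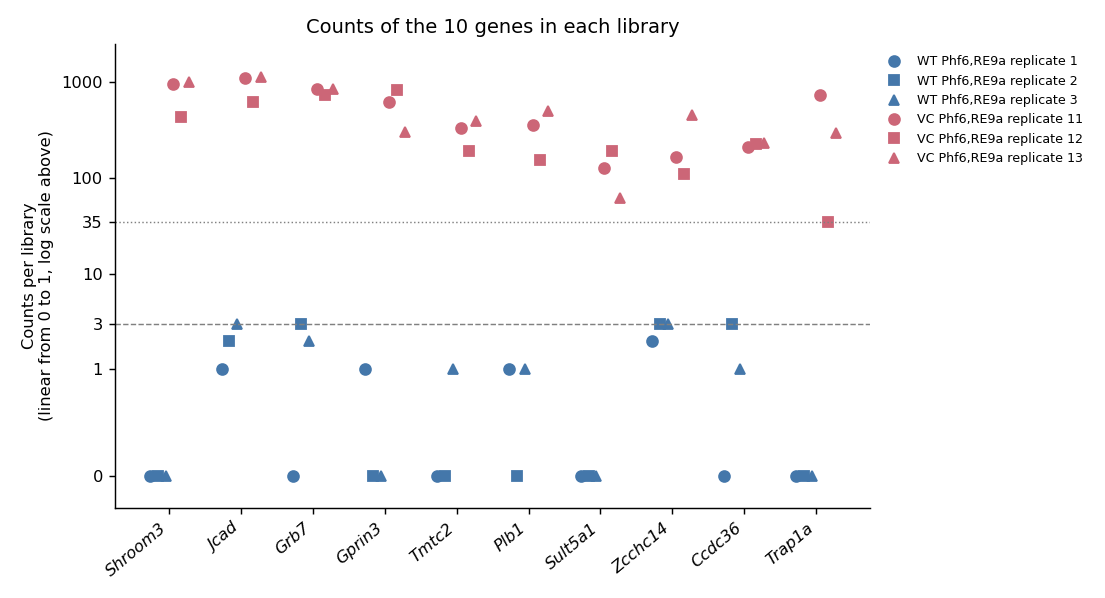
Counts per library (linear from 0 to 1, log scale above) for the 10 genes, with control (WT) libraries in blue and knockout (VC) libraries in red, 1 point a library. Dashed and dotted lines mark the limits of 3 and 35 counts by which the genes were chosen, and the lowest knockout point, Trap1a in replicate 12, lies on the limit at 35.

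Tmtc2, Plb1 and Sult5a1 encode enzymes or proteins of the endoplasmic reticulum. Tmtc2 belongs to a family that adds O-linked mannose to cadherins, lies on chr10:105187663-105574451 (minus strand) and had 331, 192 and 394 counts in knockout cells against 0, 0 and 1. The ratio was 840 (counting interval 150.4 to 33222) and rests on the 1 count of control replicate 3, without which Tmtc2 was at least 90.6-fold higher. Plb1, a phospholipase of the intestinal brush border, lies on chr5:32232708-32366520 (plus strand) and had 358, 154 and 501 counts against 1, 0 and 1, a ratio of 464 (counting interval 128 to 3837). Both genes were lowest in replicate 12 and highest in replicate 13. Sult5a1, a cytosolic sulfotransferase, lies on chr8:123140192-123158315 (minus strand) and had 128, 190 and 62 counts against 0 in every control library. It was at least 38.5-fold higher, and its libraries stood in the order of Gprin3, with replicate 12 the highest and replicate 13 the lowest.

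Zcchc14 and Ccdc36 encode nuclear and RNA-binding proteins. Zcchc14, whose protein works with the poly(A) polymerases TENT4A and TENT4B, lies on chr8:121598703-121652901 (minus strand) and had 166, 109 and 451 counts in knockout cells against 2, 3 and 3. Replicate 13 stood well above the other knockout libraries. The ratio was 83.2 (counting interval 42.0 to 193), and 47.0 without knockout replicate 13. Ccdc36 encodes IHO1, which with REC114 and MEI4 is needed for the DNA breaks that start meiotic recombination. It lies on chr9:108403611-108428484 (minus strand) and had 208, 226 and 232 counts against 0, 3 and 1. Its knockout libraries were the closest of the 10 genes, at 13.1 ± 0.756 CPM (SD, n = 3). The ratio was 153 (counting interval 59.3 to 562), and 417 without control replicate 2.

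Trap1a encodes P1A, a tumor rejection antigen first known from a mouse mastocytoma and otherwise found in germ cells and placenta. It lies on chrX:139333683-139338169 (plus strand) and had 727, 35 and 294 counts in knockout replicates 11, 12 and 13 and 0 in every control library. The 3 knockout libraries therefore differed by up to 21.0 times, and their counting intervals (95%, exact Poisson) of 675 to 782, 24.4 to 48.7 and 261 to 330 counts did not meet. The mean of Trap1a in knockout cells was at least 108-fold higher, and at least 50.5-fold higher without knockout replicate 11. Replicate 12 alone was at 2.04 CPM, beside a floor of at most 0.204 CPM. Per length of gene, in the deposited FPKM (counts scaled to library size and gene length), it had the highest mean level of the 10 genes in knockout cells, 17.4 ± 17.3 (SD, n = 3), but only 1.72 in replicate 12. The order of the levels after it was Grb7 at 14.1, Jcad at 8.22, Ccdc36 at 4.47, Gprin3 at 4.08, Shroom3 at 3.52, Tmtc2 at 2.29, Zcchc14 at 1.81, Plb1 at 1.69 and Sult5a1 at 1.66 FPKM. Grb7 differed from Jcad, and Jcad from Ccdc36, by more than the larger SD of each pair, and all other neighbors in this order differed by less than that. The median of all genes tested was 6.02 FPKM in knockout cells, so only Trap1a, Grb7 and Jcad had a mean above it.

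The 10 genes were not alike in how they varied among the knockout libraries. Replicate 12 was the lowest in 7 of the 10 genes and replicate 13 the highest in 7. Over all 14169 genes tested, replicate 12 was the lowest for 32.8% and replicate 13 the highest for 35.4%, and over the other 25 genes within the same limits these shares were 48% and 44%. The ratio of the highest to the lowest knockout library had a median of 1.15 over the 10935 tested genes with 35 or more counts in each of the 3. It was 1.12 for Ccdc36 and 1.19 for Grb7. For the other 8 genes it ran from 1.85 for Jcad to 21.0 for Trap1a, with Jcad at the 94.6th percentile of those 10935 genes and the other 7 above it. In control cells 16 of the 30 counts of the 10 genes were 0, and the genes together had 5, 11 and 11 counts, against 5479, 3523 and 5212 in knockout cells.

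**Figure D2:**
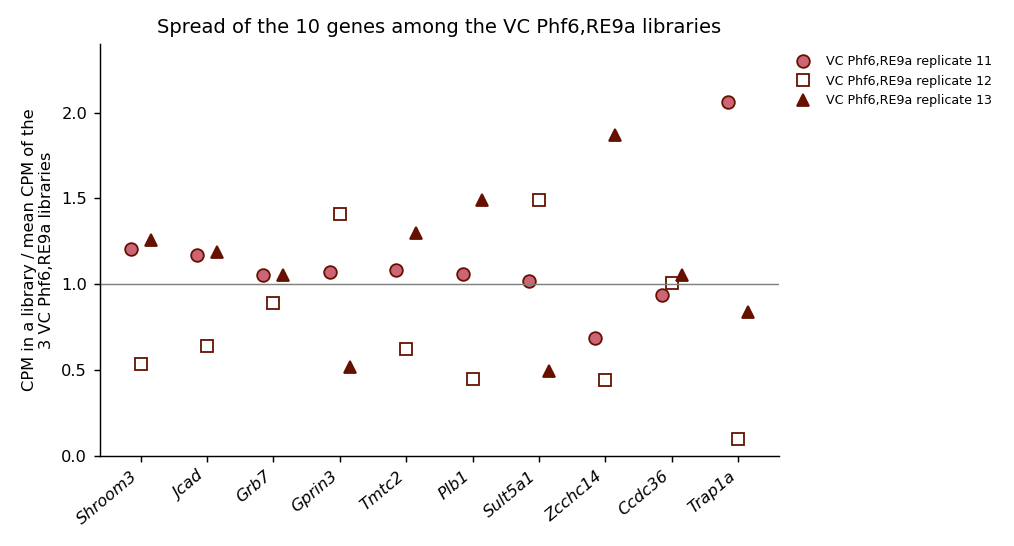
CPM of each knockout library divided by the mean CPM of the 3, for the 10 genes, with a circle for replicate 11, an open square for replicate 12 and a dark triangle for replicate 13. Ccdc36 and Grb7 lie near 1, Gprin3 and Sult5a1 are turned against Shroom3, Tmtc2 and Plb1, and Trap1a is spread the most.

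Markers of other cells and of myeloid progenitors also differed between the knockout libraries. The summed level of 12 B cell and plasma cell markers was 101, 109 and 36.9 CPM in replicates 11, 12 and 13, and between 6.36 and 20.8 CPM in control libraries. The lowest library was thus replicate 13, as for Sult5a1 and Gprin3. The summed level of 12 granulocyte markers was 3900, 2505 and 1021 CPM in replicates 11, 12 and 13 and between 167 and 513 CPM in control libraries. Replicate 11 was the highest, as for Trap1a, but replicate 12 was not the lowest. The order of Shroom3, Jcad, Grb7, Tmtc2, Plb1 and Zcchc14, with replicate 13 the highest and replicate 12 the lowest, was also that of the mast cell markers, at 4830, 4759 and 5246 CPM, and of the epithelial markers, at 74.0, 70.8 and 83.2 CPM. These sums differed less between libraries than most of these genes did. The epithelial sum was almost all Grhl2 (1238, 1211 and 1386 counts), since the other 11 markers had at most 9 counts. Among the mast cell markers, Ms4a2 (16431, 16048 and 22274 counts) had this order. Cpa3 (2671, 6701 and 4608) and Tpsb2 (7, 874 and 36) were instead highest in replicate 12. The order of Gprin3 and Sult5a1 was that of the B cell and plasma cell markers. It was also that of the myeloid progenitor markers, at 1741, 1788 and 1531 CPM. The stromal markers (6.08, 6.70 and 4.75 CPM) and the erythroid markers (8111, 8969 and 7861 CPM) shared it. The progenitor, stromal and erythroid sums differed less between libraries than Gprin3 and Sult5a1 did. Within the erythroid list Hbb-bs (41590, 42650 and 36512 counts) had this order, while Hba-a1 (25878, 30053 and 26628) and Alas2 (2024, 2794 and 2395) were lowest in replicate 11. No B cell, plasma cell or granulocyte marker was at 0 in all 6 libraries. Whether other cells in the sort had a part in the counts of the 10 genes was not tested. In bulk RNA, fewer cells that express a gene and less RNA per cell cannot be told apart.

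Just outside the limits, the genes are given here once. With 4 counts in a control library there were 16 genes, led by Aldh1l1 (653, 648 and 763 counts in knockout cells, 3, 0 and 4 in control cells), a folate enzyme. With 30 to 34 counts in the lowest knockout library there were 2, Sva (45, 30 and 46 against 0, 0 and 0) and Fscn3 (32, 30 and 51 against 0, 1 and 1). Trap1a at 35 counts and Sult5a1 at 62 counts were the 2 of the 10 genes nearest the lower limit, and Grb7, Jcad, Ccdc36 and Zcchc14 had 3 counts, the upper limit, in at least 1 control library. When the same limits were set as CPM at the median library size, 22 genes met them in place of 35, and of the 10 genes only Gprin3, Plb1, Shroom3, Sult5a1 and Tmtc2 did. The mirror of the limits, 35 or more counts in each control library and at most 3 in each knockout library, was met by 31 genes.

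The other 25 genes within the limits were led by Il22ra1, the receptor subunit of interleukin-22, with 1127, 1043 and 1152 counts against 0. The other 24 had between 35 and 272 counts in each knockout library. They included Gm9522, Platr25, Crim1, Gm28876, Slc30a10, Elovl2, Paqr5, Cda, Zfp951, Rag1, Slc22a21, Zyg11a, Zfp873, Cldn9, Blnk, Rph3al, Prg3, Bfsp1, Zbp1, 1700048O20Rik, Myom3, Klf8 and E230016K23Rik. Among these, Blnk and Rag1 belong to B cell development. The 35 genes lie on 16 chromosomes and the 10 genes on 8.

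**Figure D3:**
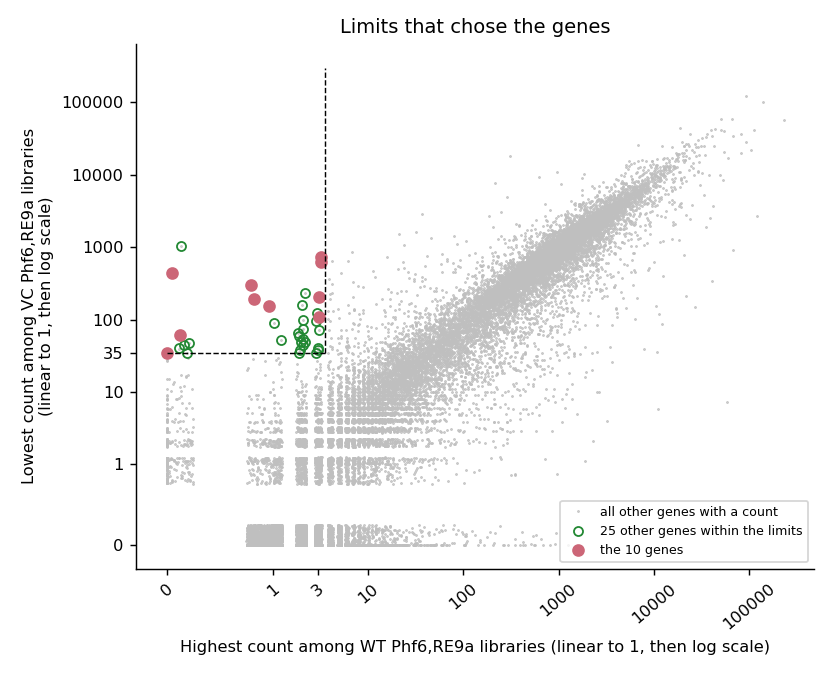
For every gene with a count, the highest count among control libraries against the lowest among knockout libraries (both axes linear to 1, then log scale), with low values spread by a small random shift. Dashed lines mark the limits, within which lie the 10 genes (red) and 25 others (green rings), and Il22ra1 is the highest ring.

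For each of the 10 genes, the tested genes nearest in profile were found by Euclidean distance in log2 CPM over the 6 libraries, a description in which all points share the same libraries. Grb7 and Jcad were each other's nearest (distance 0.97), and so were Tmtc2 and Plb1 (0.78). Shroom3 lay nearest to Il22ra1 (1.30), then to Jcad and Grb7. Gprin3 lay nearest to Afap1l1 (1.95; 492, 809 and 202 counts in knockout cells) and then to Mmp15 and Shroom3. Sult5a1 lay nearest to Rag1 (1.11), a recombinase of lymphoid cells with 128, 137 and 54 counts, and then to Tek, an endothelial and stem cell receptor with 72, 217 and 27. Both had their lowest count in replicate 13, as Sult5a1 did. Ccdc36 lay nearest to Platr25, Trim6 and Pla2g1b, and Zcchc14 to Gapt, Gm28876 and Platr25. Trap1a had no close neighbor in profile, the nearest being Plb1 at a distance of 2.57.

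The genes around the 10 loci were not chosen on their counts and were read from the fit of all genes. Over the whole table, 3047 of 14169 tested genes were higher (21.5%) and 3213 lower (22.7%) in knockout cells at an adjusted p under 0.05 by the quasi-likelihood test of edgeR. Within 500 kb of the 10 genes, 141 other genes were tested, of which 34 were higher and 32 lower, close to those background shares. Their median log2 fold change was 0.037, beside 0.013 over all genes tested. Around Shroom3, 4 of 11 tested genes were lower and 0 higher, and around Trap1a 3 of 3 were lower. Around Ccdc36, in a gene-dense stretch, 16 of 47 were higher and 6 lower, and around Grb7 9 of 25 were higher and 4 lower.

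Ikzf3 is the nearest tested gene after Grb7 on the chromosome, 9.53 kb away, and encodes Aiolos, a zinc finger factor of lymphocytes. It had 2, 3 and 10 counts in control cells and 47, 56 and 20 in knockout cells (log2 fold change 2.89 with a standard error of 0.62, adjusted p = 0.00718 by edgeR). Ikzf3 had enough counts to be tested only in knockout cells, so it could be called only as higher there. Its lowest knockout library was replicate 13, as for the B cell markers. Grb7 itself had 857, 734 and 854 counts there. On the other side, Mien1 at 7.40 kb did not pass the threshold (103, 96 and 121 against 152, 134 and 135 counts, adjusted p = 0.258), and Erbb2, a receptor gene at 8.68 kb, had at most 5 counts in any library. Stard3, 65.3 kb before Grb7, was higher by 0.34 on the log2 scale (adjusted p = 0.0224), a call that held only without control replicate 2 when libraries were left out in turn (adjusted p from 0.0162 to 0.0888 in edgeR).

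Other neighbors moved either way. Klhdc8b, 19.2 kb after Ccdc36, had 756, 986 and 911 counts against 2659, 2803 and 2973 (log2 fold change 1.54 with a standard error of 0.12, adjusted p = 0.000107 by edgeR), and Gpx1, a glutathione peroxidase 63.3 kb before Ccdc36, rose from 1063 to 2785 CPM (log2 fold change 1.39, adjusted p = 0.000141). Usp4, 11.1 kb before Ccdc36, had a log2 fold change of 0.21 and did not pass (adjusted p = 0.0829). Fosl2, an AP-1 subunit 74.9 kb before Plb1, fell from 190 ± 82.1 to 21.9 ± 13.4 CPM (SD, n = 3; log2 fold change -3.12 with a standard error of 0.52, adjusted p = 0.00258). Ppp1cb, the nearest tested gene on the other side of Plb1, had a log2 fold change of 0.20 (adjusted p = 0.0947). D330045A20Rik, 142 kb after Trap1a, was lower (log2 fold change -1.02, adjusted p = 0.00186). So were the other tested genes within 500 kb of Trap1a, Rnf128 (-3.35, adjusted p = 2.84e-05) and Tbc1d8b (-0.30, adjusted p = 0.0499), which are named here after their values were seen.

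Around Sult5a1, Cpne7 at 5.01 kb had 52, 13 and 62 counts against 128, 70 and 134 (log2 fold change 1.28, adjusted p = 0.0747 by edgeR, and past the threshold with DESeq2), and Chmp1a on the other side had a log2 fold change of -0.023 (adjusted p = 0.841). Ankrd11 (-0.40, adjusted p = 0.0122), 2810013P06Rik (-0.47, adjusted p = 0.0343) and Zfp276 (0.36, adjusted p = 0.0444), between 95.6 and 97.9 kb away, passed the threshold. Fbxo31, 19.9 kb before Zcchc14, was higher by 0.40 on the log2 scale (adjusted p = 0.0124), and Jph3 after it did not pass (adjusted p = 0.299). The nearest tested genes of Shroom3 (Scarb2 and Gm6450), Gprin3 (Tigd2), Jcad (Mtpap and Svil) and Tmtc2 (Mettl25) did not pass the threshold, with log2 fold changes between -0.43 and 0.62. With libraries left out in turn, 2810013P06Rik kept its call only without control replicate 3 (adjusted p from 0.0352 to 0.115 in edgeR) and Zfp276 only without control replicate 2 (0.0148 to 0.145). Ankrd11 and Fbxo31 each lost theirs without knockout replicate 12 (adjusted p = 0.0571 and 0.0557).

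**Figure D4:**
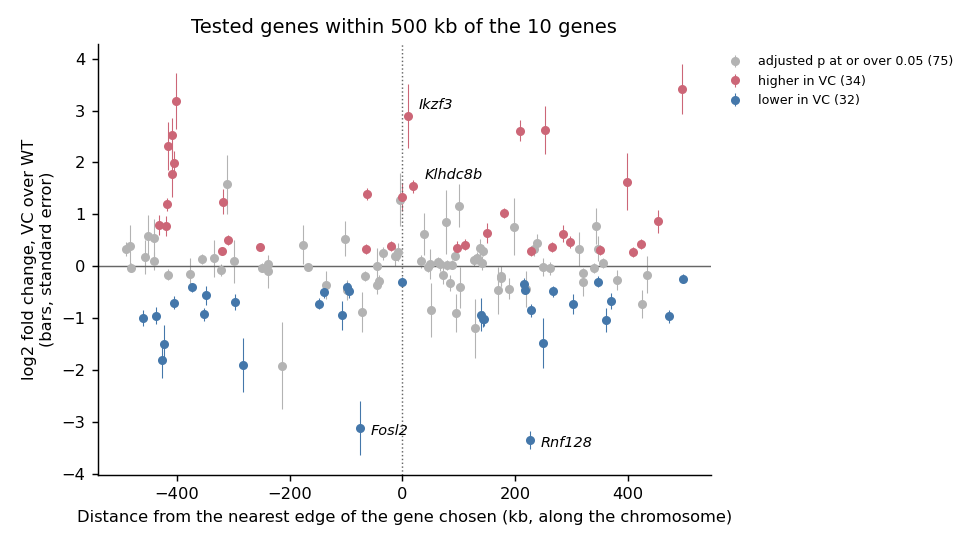
Log2 fold change of knockout over control cells, with its standard error, against distance along the chromosome (kb) from the nearest edge of one of the 10 genes, for the 141 tested genes within 500 kb. Genes higher (34, red) and lower (32, blue) lie on both sides of 0 kb, and Ikzf3, Klhdc8b, Fosl2 and Rnf128 are named.

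Some of the 10 genes overlap others, and the strandedness of the counting is not given in the sources used here, so reads of overlapping partners cannot be told apart where both strands are transcribed. Gm15663 runs over the start of Tmtc2 and its upstream sequence on the opposite strand and had 16, 9 and 8 counts in knockout cells and 0 in control cells. Platr21 runs over Trap1a on the opposite strand and had 11, 1 and 11 counts in replicates 11, 12 and 13, with its lowest count in replicate 12, as for Trap1a, and 0, 1 and 0 in control cells. 1700102P08Rik overlaps Ccdc36 on the opposite strand and was read in both groups (14, 19 and 21 against 52, 49 and 48 counts, log2 fold change 1.33 with a standard error of 0.28, adjusted p = 0.00655 by edgeR). Map1lc3b, an autophagy gene, overlaps the end of Zcchc14 with 2082 to 2593 counts in each of the 6 libraries and was lower by 0.30 on the log2 scale (adjusted p = 0.0410), a call that held only without control replicate 3 when libraries were left out in turn (adjusted p from 0.0146 to 0.138). The control counts of Zcchc14 stayed at 2 or 3 beside it.

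Relatives of the 10 genes moved both ways. Of 33 relatives in the table, 19 had 0 counts in all 6 libraries, of which 16 were among the 20 sulfotransferase genes and 3 among the 13 relatives of the other genes. The 9 that were tested had 3 higher and 3 lower (background 21.5% and 22.7%), with a median log2 fold change of 0.58. Beside Shroom3, Shroom4 rose from 7.34 ± 3.02 to 22.5 ± 2.21 CPM (SD, n = 3; log2 fold change 1.62 with a standard error of 0.30, adjusted p = 0.00376 by edgeR), while Shroom1 and Shroom2 had at most 1 count in a library. Beside Grb7, Grb10, an adaptor that restrains insulin and growth factor receptors, fell from 73.8 ± 9.74 to 33.6 ± 1.86 CPM (SD, n = 3; log2 fold change -1.14, adjusted p = 0.000287), and Grb14 had at most 4 counts. Beside Tmtc2, Tmtc3 rose by 0.58 on the log2 scale (adjusted p = 0.00803) and Tmtc4 fell from 4.96 to 1.06 CPM (log2 fold change -2.22, adjusted p = 0.00844).

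Plbd1 and Plbd2, which share with Plb1 the name of the enzyme activity rather than the protein family, moved in opposite directions. Plbd1 had 56, 44 and 97 counts in control cells and 465, 346 and 150 in knockout cells (log2 fold change 2.17 with a standard error of 0.44, adjusted p = 0.00568 by edgeR). It was highest in replicate 11 and lowest in replicate 13, the order of the granulocyte markers and not that of Plb1. Plbd2 was lower by a log2 fold change of -0.38 (adjusted p = 0.0170), a call lost without knockout replicate 11 or 13 (adjusted p up to 0.0763). Zcchc2 had 17, 32 and 32 against 82, 61 and 40 counts (log2 fold change 1.04, adjusted p = 0.0567) and passed the threshold with DESeq2 and without knockout replicate 13 (adjusted p = 0.0394). Of the other sulfotransferase genes, Sult1a1 (-0.033, adjusted p = 0.953) and Sult6b1 (0.67, adjusted p = 0.181) were the only ones tested and did not pass.

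Genes for known partners of the 10 proteins moved both ways. Of 31 partner genes in the table, 22 were tested, of which 2 were higher and 9 lower (background 21.5% and 22.7%), with a median log2 fold change of -0.085. Among the motor and kinase partners of Shroom3, the nonmuscle myosin Myh10 fell from 293 ± 15.9 to 12.8 ± 3.86 CPM (SD, n = 3; log2 fold change -4.51 with a standard error of 0.22, adjusted p = 2.35e-05 by edgeR) and its relative Myh9 rose from 667 ± 34.7 to 1013 ± 45.8 CPM (SD, n = 3; log2 fold change 0.60, adjusted p = 0.00193). The kinase gene Rock1 was lower by a log2 fold change of -0.29 (adjusted p = 0.0253), and Rock2 did not pass (-0.066, adjusted p = 0.769). Rock1 lost its call without control replicate 1 and without each knockout library (adjusted p up to 0.105).

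Receptors that bind Grb7 went different ways. Kit, the stem cell factor receptor, fell from 2420 ± 471 to 273 ± 70.1 CPM (SD, n = 3; log2 fold change -3.15 with a standard error of 0.23, adjusted p = 7.75e-05 by edgeR), and Erbb3 from 36.0 to 16.0 CPM (log2 fold change -1.17, adjusted p = 0.0301), while Insr was higher by 0.46 (adjusted p = 0.0342). With libraries left out in turn, Erbb3 kept its call only without control replicate 1 or knockout replicate 13 (adjusted p from 0.00421 to 0.101 in edgeR) and Insr only without control replicate 2 (0.00120 to 0.107). Erbb4 had 0 counts, and Hras did not pass (0.044, adjusted p = 0.850). Among the G protein partners of Gprin3, Gnai3 was lower (-0.40, adjusted p = 0.00550), Gnai2 did not pass (-0.23, adjusted p = 0.0607, and past the threshold with DESeq2 and without control replicate 2), and Gnai1, Gnao1 and Gnaz had at most 5 counts in a library. Among the partners of Jcad, Lats2 fell from 10.9 ± 1.47 to 4.36 ± 0.879 CPM (SD, n = 3; log2 fold change -1.32 with a standard error of 0.23, adjusted p = 0.00277) and Lats1 did not pass (0.014, adjusted p = 0.924). The Hippo effectors Yap1 and Wwtr1 had at most 2 counts and the endothelial cadherin Cdh5 at most 12 in any library.

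Sulfotransferases such as Sult5a1 need the sulfate donor PAPS, which Papss1 and Papss2 make. Papss2 fell from 629 ± 118 to 169 ± 9.26 CPM (SD, n = 3; log2 fold change -1.90 with a standard error of 0.14, adjusted p = 8.22e-05 by edgeR). Papss1 (-0.29, adjusted p = 0.0442) and the Golgi PAPS transporter Slc35b2 (-0.36, adjusted p = 0.0110) were also lower, and Slc26a2, Slc35b3 and Bpnt1 did not pass. Papss1 kept its call only without control replicate 2 when libraries were left out in turn (adjusted p from 0.0230 to 0.164 in edgeR), and Slc35b2 lost its call without knockout replicate 13 (adjusted p = 0.0537). The other partners tested were the endoplasmic reticulum genes Canx (0.17, adjusted p = 0.356) and Atp2a2 (-0.020, adjusted p = 0.859) for Tmtc2, and the poly(A) polymerases Tent4a (0.19, adjusted p = 0.253) and Papd5 (-0.015, adjusted p = 0.909) for Zcchc14, and none of these 4 passed in the edgeR fit.

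**Figure D5:**
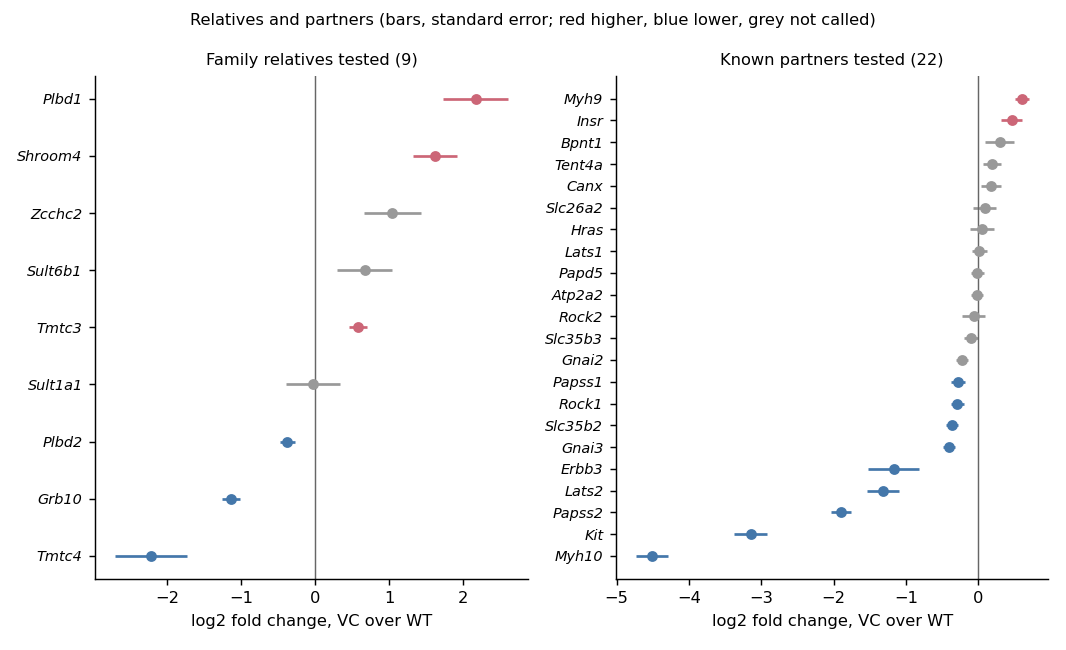
Log2 fold change of knockout over control cells with its standard error for the 9 tested relatives (left) and the 22 tested partners (right) of the 10 genes, with genes called higher in red, lower in blue and not called in grey. Myh10, Kit and Papss2 lie farthest to the left among the partners.

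Ccdc36 was set beside 31 other genes of meiotic recombination, of which 11 were tested, with 3 higher and 2 lower (background 21.5% and 22.7%) and a median log2 fold change of -0.15. Rnf212, a meiotic crossover factor, had 3, 2 and 10 counts against 76, 75 and 70 (log2 fold change 3.74 with a standard error of 0.47, adjusted p = 0.000708 by edgeR), and Mnd1, which helps strand exchange, 6, 4 and 5 against 52, 42 and 49 (log2 fold change 3.10 with a standard error of 0.33, adjusted p = 0.000328). Sycp1, a synaptonemal complex gene, went the other way, with 24, 48 and 46 counts in control cells and 0 in every knockout library (adjusted p = 0.000928). Rnf212 and Mnd1 had enough counts to be tested only in knockout cells, and Sycp1 only in control cells. These genes could therefore be called only in the direction found. Rec114, whose protein works with that of Ccdc36, had 42, 53 and 37 counts against 65, 80 and 68 and did not pass (adjusted p = 0.132, named for that role after its values were seen). The 3 most abundant, Syce2, Msh5 and Mlh3, did not pass either (log2 fold changes -0.27, -0.48 and -0.053).

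Trap1a was set beside 41 other germline and X-linked tumor antigen genes, of which 25 had 0 counts in all 6 libraries. In all, 36 were not tested. Of the 5 that were tested 4 were higher and 0 lower (background 21.5% and 22.7%; median log2 fold change 1.5), and all had reads in both groups. These 5 are autosomal, and no X-linked gene of the list had enough counts to be tested. Of the X-linked genes, Xlr4a had the most counts (4, 16 and 66 in control cells against 5, 2 and 1). Xlr4b had 1, 3 and 3 against 9, 7 and 8, and both are named after their values were seen. Piwil4, a small RNA binding protein of germ cells, had 13, 12 and 16 counts against 76, 95 and 74 (log2 fold change 2.44 with a standard error of 0.27, adjusted p = 0.000395 by edgeR), and Ddx4, a germ cell helicase, 30, 20 and 17 against 61, 67 and 80 (log2 fold change 1.5 with a standard error of 0.32, adjusted p = 0.00692). Brdt (2.88, adjusted p = 0.0161) and Dazl (0.63, adjusted p = 0.0383) were also higher, and Tex101 did not pass (0.56, adjusted p = 0.0658). Dazl had 105, 76 and 111 counts against 147, 161 and 182, so that replicate 12 was not the lowest in Dazl, Piwil4 or Ddx4, as it was in Trap1a. Dazl lost its call in each of the 6 fits without a library (adjusted p from 0.0546 to 0.130), and Brdt without knockout replicate 13 (0.0553). Brdt (4, 3 and 0 counts against 12, 17 and 30) had enough counts to be tested only in knockout cells, so it could be called only as higher there.

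The labelled cells were checked against marker lists, which are given here by counts and summed levels, beside a background of 21.5% higher and 22.7% lower over all genes tested. Of 12 myeloid progenitor markers 5 were higher and 3 lower, with Kit and Cd34 among the lower and Prtn3 among the higher. All 12 granulocyte markers were higher. Of 11 mast cell markers 10 were lower, with a summed level of 17343 to 27469 CPM in control cells and 4759 to 5246 CPM in knockout cells, and of 12 erythroid markers 11 were higher. Of the lists for the tissues in which the 10 genes are best known, 7 endothelial markers were tested, with 3 higher (Tek and Esam among them) and 2 lower (Erg and Plvap). The summed level was lower, at 48.3 to 49.2 CPM against 80.2 to 106. Most of the control sum was Erg (mean 43.5 CPM in control and 9.94 in knockout cells) and Plvap (43.5 and 16.6). Tek (0 and 6.17) and Esam (1.60 and 8.67) were low in control cells and added little to it. Of 12 epithelial markers only Grhl2 was tested and higher (log2 fold change 1.08, adjusted p = 0.000442 by edgeR), and the other 11 had at most 9 counts. Of 12 stromal markers 2 were tested, with 1 higher and 1 lower. Of the 2 tested T and NK cell markers both were higher, of 7 B cell and plasma cell markers 6 were higher and 0 lower, of 8 dendritic cell markers 4 were higher and 0 lower, of 10 macrophage and monocyte markers 3 were higher and 1 lower, and of 4 megakaryocyte markers 1 was higher and 2 lower.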

How the data were processed

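RNA of 6 libraries was sequenced in pairs of reads, and the authors deposited 1 table with raw counts per gene and FPKM values, which in every library were the counts divided by gene length and a scaled library size. The submitters' processing notes name Bowtie 0.12.0 and mm8, whereas 98.3% of the 54495 genes matched to GENCODE M21 had their GRCm38 start and end, as did 9 of the 10 genes described (not Jcad). The counter, annotation and strandedness are not given in the sources used here. The deposited columns of the authors' own comparison (group means, fold changes and p-values) were not used.

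The 10 genes and all gene lists were chosen with earlier results of these data known. CPM were computed with TMM scaling. Genes kept by filterByExpr were tested in edgeR 4.0.16 (R 4.3.3) with the quasi-likelihood test, all 6 libraries and group as the only term, with Benjamini-Hochberg adjustment over 14169 genes. A gene was called at an adjusted p under 0.05, and procedures were tested on simulated data. A gene kept only through the counts of a given group could be called only as higher in that group. Folds of the 10 genes are ratios of pooled counts scaled by library size, with exact binomial 95% intervals. Where all WT Phf6,RE9a counts were 0, they are bounds of the VC Phf6,RE9a mean against 3 counts per library. Named were the 10 genes, other genes within the limits, the nearest tested gene on each side, called genes within 100 kb, tested relatives and partners, and in each other list the 3 of highest CPM and the 3 of smallest p. Promoter sequences are RefSeq's (GRCm38.p6). Alternatives were DESeq2 1.42.0, its size factors in edgeR, fits unfiltered or limited to genes with 10 counts in all libraries, each library left out, other limits, and windows of 100 and 1000 kb. Some items within the limits and lists are not reported here.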

Additional observations from a re-analysis of the deposited data

How the results depend on the processing

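The number of genes within the limits depended on the limits: 35 as chosen, 8 with 0 counts in each WT Phf6,RE9a library, 110 with at most 10 there, 106 with 10 or more in each VC Phf6,RE9a library, 12 with 100 or more, 22 with the limits as CPM (genes meeting the member rule), and 37 to 51 with a library left out. With libraries left out in turn, ratios ran from 1040 to 1993 for Gprin3, 300.2 to 766 for Grb7, 563 to 1002 for Tmtc2 and 102 to 417 for Ccdc36, except that Gprin3 without WT Phf6,RE9a replicate 1 and Tmtc2 without replicate 3 had only lower bounds, 179 and 90.6. Of the neighboring genes, 7 of 36 tested were higher and 4 lower within 100 kb, and 67 of 238 higher and 46 lower within 1000 kb (background 21.5% and 22.7%). With at least 10 counts in every library, higher genes numbered 1 for meiotic recombination, 0 for megakaryocyte, 1 for T and NK cell, 2 for B cell and plasma cell, 1 for dendritic cell, 1 for endothelial and 0 for stromal markers, and lower genes 1 for meiotic recombination, 0 for macrophage and monocyte markers and 0 for stromal markers, since fewer genes were tested. With no count filter, 1 germline gene was lower, and 2 megakaryocyte and 11 B cell and plasma cell markers were higher. With a library left out, 1 to 2 partners were higher, 1 to 3 meiotic genes lower, 0 to 1 germline genes lower, 1 to 2 megakaryocyte, 1 to 3 T and NK cell and 5 to 12 B cell and plasma cell markers higher, and 0 to 1 stromal markers lower, and the cause was not tested. Genes that changed sign with a library left out were all without a call: log2 fold changes ran from -0.072 to 0.011 for Chmp1a, -0.11 to 0.13 for Hras, -0.048 to 0.081 for Lats1, -0.19 to 0.11 for Mlh3, -0.025 to 0.096 for Mtpap, -0.061 to 0.038 for Papd5, -0.44 to 0.49 for Pf4, -0.17 to 0.15 for Rock2, -0.077 to 0.25 for Slc26a2 and -0.27 to 0.20 for Sult1a1. Of 76 called genes among those named by the rule, which leaves out Rnf128, Tbc1d8b and Tek, 69 kept their call with other tools and filters, 57 with each library left out, and 76 their direction. No paired analysis was possible because the groups compared share no replicate numbers. Depth limits what 0 counts can show to 3 counts, at most 0.204 CPM, in a WT Phf6,RE9a library.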
